A study of Homo sapiens with 12 samples.

Results

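The genes described here encode the enzymes that make cholesterol, the proteins that sense it, and the proteins that take it up, move it, store it and export it. The set holds 34 genes chosen by name, and 32 of them were measured by 43 array probes, out of 11933 genes measured in all. The choice was made with earlier results of these data known. FDFT1 (squalene synthase) and NR1H2 (a liver X receptor) have no probe in the probe table used and were not analysed here. RNA came from 2 human prostate cancer lines that both derive from LNCaP, an androgen-responsive line from a lymph node metastasis. LNCaP-abl cells (Abl) were grown without phenol red in 10% charcoal-stripped serum, a treatment that removes steroid hormones and other lipids. The enzalutamide-resistant line (MDVR) was selected for over a year in 25 microM enzalutamide, an androgen receptor antagonist, in 10% fetal bovine serum, and was held in 10 microM during the experiments. Cells of each line received 25 nM of 1 Stealth siRNA against the transcription factor GATA2 (siGATA2) or a non-targeting siRNA (siNT), and RNA was taken 72 h later. Each of the 4 groups (Abl siNT, Abl siGATA2, MDVR siNT and MDVR siGATA2) had 3 Illumina BeadChip arrays, so serum, enzalutamide and line differ together and cannot be told apart.

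Cholesterol is built from acetyl-CoA through mevalonate, isoprenoid diphosphates, squalene and lanosterol. When sterols in the endoplasmic reticulum are low, SCAP escorts SREBP transcription factors to the Golgi, where they are cut and released to switch on the synthesis genes; when sterols are high, the INSIG proteins hold SCAP back. Oxysterols instead activate liver X receptors (LXR), which switch on exporters such as ABCA1 and ABCG1. Prostate tumours are known for high lipid and cholesterol synthesis, which androgen signalling raises, and cholesterol is the precursor of androgens.

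On each array 19103 to 20513 of 47323 probes were detected, and the luminal markers KRT8, KRT18, FOLH1, HOXB13 and EPCAM were detected on all 12 arrays. KLK2 and KLK3, secreted luminal proteins driven by androgen, were detected on 3 arrays each. KLK4 and TMPRSS2, of the same list of luminal markers, were detected on all 12 arrays. The leukocyte marker CD14 was detected on 2 arrays and the stromal marker COL1A2 on 0. The other markers of these kinds (PTPRC, CD3E, COL1A1 and PECAM1) and the basal markers KRT5, KRT14 and TP63 had no probe listed. The knockdown was weak at the RNA level. GATA2 fell in Abl by 0.41 on the log2 scale, to 75.0% of siNT (adjusted p = 0.0101), and without Abl siNT replicate 1 this call was lost (-0.31, adjusted p = 0.0576). In MDVR the GATA2 change was -0.18 (95% interval -0.42 to 0.06, adjusted p = 0.297), so "siGATA2" below names the siRNA given, not a measured loss of GATA2.

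In each line the cholesterol genes called with siGATA2 were mainly higher, and 20 of 32 in Abl and 21 in MDVR were not called. Most of the 32 were lower in MDVR than in Abl under either siRNA. A gene is called here when its Benjamini-Hochberg adjusted p, from limma over all 11933 genes, is under 0.05. In Abl, siGATA2 raised 11 of the 32 genes (34.4%) against 15.1% of all genes, and lowered 1 (3.12%) against 16.1%. STARD4, 1 of the 11, passed the detection filter only through Abl siGATA2, the group where it was high. In MDVR it raised 10 (31.2%) against 11.5% of all genes, and lowered 1 (3.12%) against 10.6%. The median log2 change of the members was 0.20 in Abl and 0.09 in MDVR, where the median of all genes was 0.00 in both. Between the lines the balance was the other way. Under siNT 22 members (68.8%) were lower in MDVR and 2 higher, against 25.5% of all genes lower and 25.5% higher. Under siGATA2 22 members were lower and 3 higher, against 26.3% of all genes lower and 29.2% higher. In these cultures fewer cells of a kind and less RNA per cell cannot be told apart, and the values are relative to the other probes of an array.

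**Figure D1:**
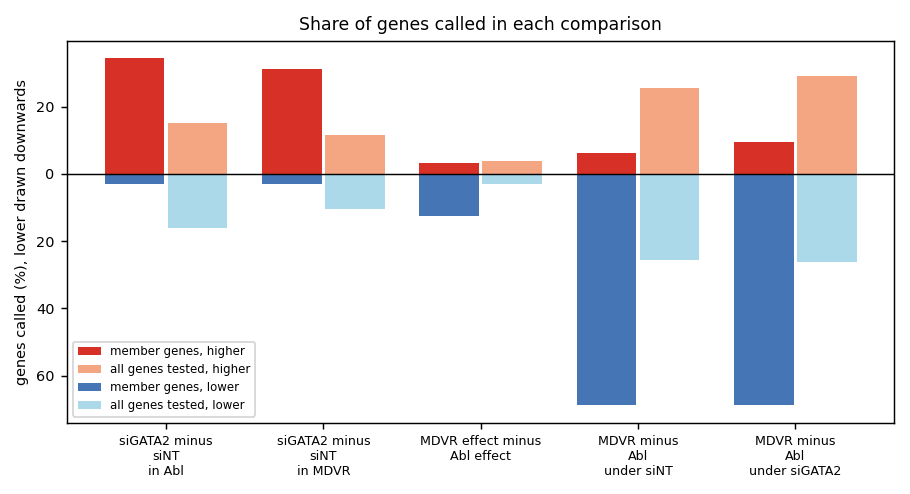
Share of genes called higher (bars above 0) or lower (bars below 0) in each comparison, for the 32 measured member genes and for all 11933 genes tested, in percent. The member bars stand above the all-gene bars for rises with siGATA2 in both lines, and reach 68.8% for falls in MDVR against Abl.

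The plot of all members by array shows both patterns in pathway order. It is read across a row: colour shifts between the first and second blocks of 3 arrays are the siGATA2 change in Abl, those between the last 2 blocks are the change in MDVR, and the shift from left to right is the difference between lines.

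**Figure D2:**
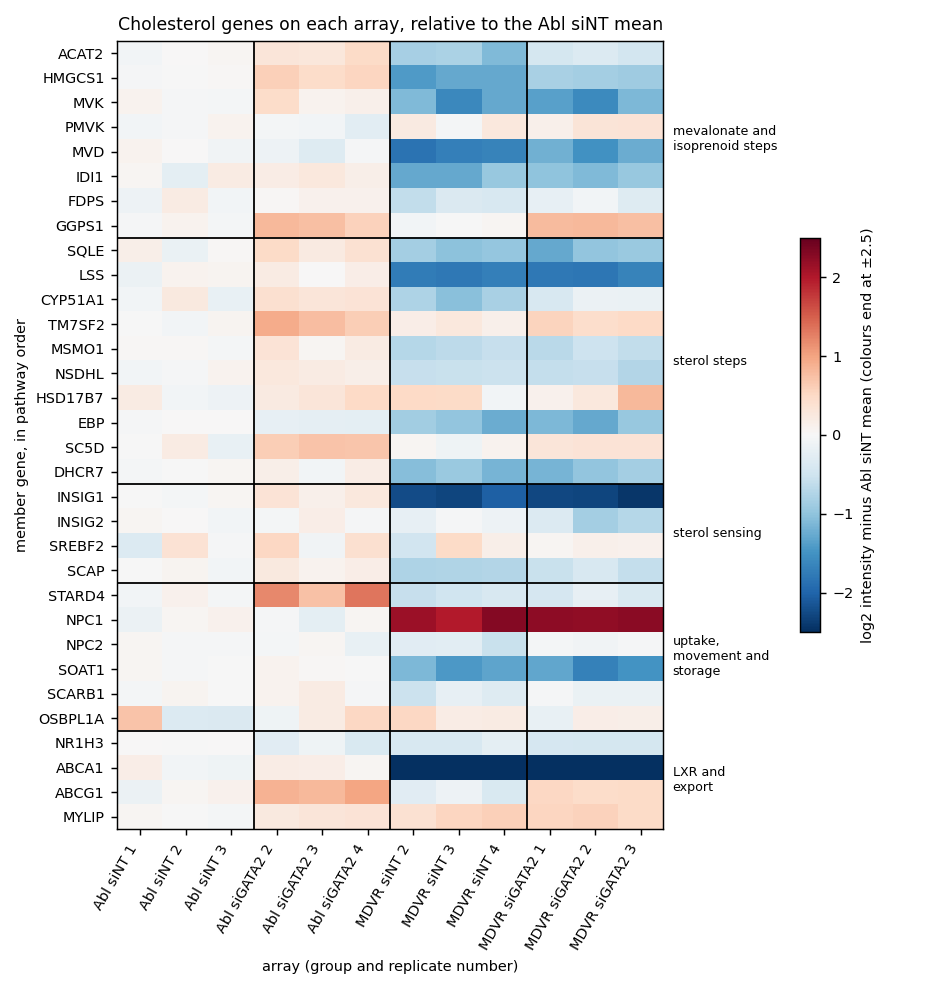
Normalized log2 intensity of each measured member on each of the 12 arrays, minus the mean of the 3 Abl siNT arrays of the same gene, with rows in pathway order and colours ending at a difference of 2.5. GGPS1 and ABCG1 turn red with siGATA2 in both lines, while ABCA1, INSIG1 and LSS are blue and NPC1 red on every MDVR array.

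Promoter sequence is shown for 6 members that stand for the patterns below: HMGCS1, GGPS1 and TM7SF2, which rose with siGATA2 in both lines, and INSIG1, NPC1 and ABCA1, which differed most between the lines. Each is the 250 bases before the gene start, from RefSeq on GRCh38.p14, read 5′ to 3′ on the strand of the gene. Capitals mark an NF-Y box (CCAAT, or ATTGG on the other strand) or a sterol regulatory element core (CACCCCAC), the letters bound by SREBP and by a factor that works beside it. They lie at chr5:43313413-43313662 (minus strand), chr1:235326966-235327215 (plus), chr11:65111622-65111871 (plus), chr7:155297628-155297877 (plus), chr18:23586507-23586756 (minus) and chr9:104928156-104928405 (minus), in the order printed.
HMGCS1: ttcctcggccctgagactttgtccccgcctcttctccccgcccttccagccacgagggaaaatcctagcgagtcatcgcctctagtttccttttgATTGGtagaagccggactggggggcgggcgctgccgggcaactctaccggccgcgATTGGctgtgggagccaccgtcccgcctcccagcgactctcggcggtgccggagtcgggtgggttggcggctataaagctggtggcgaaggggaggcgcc
GGPS1: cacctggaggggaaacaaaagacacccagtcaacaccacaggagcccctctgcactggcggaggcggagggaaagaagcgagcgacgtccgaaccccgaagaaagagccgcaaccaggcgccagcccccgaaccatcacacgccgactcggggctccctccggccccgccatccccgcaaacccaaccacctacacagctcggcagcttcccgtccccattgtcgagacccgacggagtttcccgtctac
TM7SF2: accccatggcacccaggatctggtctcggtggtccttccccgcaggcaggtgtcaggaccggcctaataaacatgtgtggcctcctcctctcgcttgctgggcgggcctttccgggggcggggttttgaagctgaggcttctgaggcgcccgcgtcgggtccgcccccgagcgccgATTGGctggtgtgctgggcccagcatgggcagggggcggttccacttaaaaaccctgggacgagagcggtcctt
INSIG1: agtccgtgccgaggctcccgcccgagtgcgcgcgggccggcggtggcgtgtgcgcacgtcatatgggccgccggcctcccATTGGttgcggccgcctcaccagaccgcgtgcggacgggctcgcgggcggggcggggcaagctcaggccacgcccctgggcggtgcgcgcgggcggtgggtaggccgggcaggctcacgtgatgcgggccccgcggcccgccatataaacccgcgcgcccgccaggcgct
NPC1: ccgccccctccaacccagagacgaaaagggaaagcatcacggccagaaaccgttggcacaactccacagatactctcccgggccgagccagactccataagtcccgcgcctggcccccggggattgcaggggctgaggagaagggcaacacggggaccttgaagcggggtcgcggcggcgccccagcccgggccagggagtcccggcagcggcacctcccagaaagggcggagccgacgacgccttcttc
ABCA1: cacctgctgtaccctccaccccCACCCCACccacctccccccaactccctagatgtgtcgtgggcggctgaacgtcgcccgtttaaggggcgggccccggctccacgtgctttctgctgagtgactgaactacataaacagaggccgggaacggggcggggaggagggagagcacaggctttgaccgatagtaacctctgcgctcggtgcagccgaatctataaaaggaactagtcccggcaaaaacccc

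In these windows HMGCS1 holds 2 NF-Y boxes, TM7SF2 and INSIG1 hold 1 each, ABCA1 holds 1 sterol element core, and GGPS1 and NPC1 hold neither. RefSeq promoters were found for 29 members and read from 250 bases before to 50 after the start, on both strands. The NF-Y box occurred in 18 of the 29 (62.1%), against 35.7% of all 27305 promoters and 37.4% of those of the genes tested. The Sp1 box GGGCGG occurred in 25 (86.2%), against 44.6% of all promoters and 68.6% of those of the genes tested. The core CACCCCAC occurred in 2, SREBF2 and ABCA1 (6.9%, against 2.72% of all promoters and 2.49% of those of the genes tested). A GATA box (AGATAA or TGATAA) occurred in 4, FDPS, CYP51A1, EBP and OSBPL1A (13.8%, against 16.6% of all promoters and 8.34% of those of the genes tested), and of these CYP51A1 alone was called with siGATA2. These are matches of letters in a short window and were not tested for binding.

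The first steps, from acetyl-CoA to the isoprenoid diphosphates, included 4 genes that rose. ACAT2, the cytosolic thiolase that joins 2 acetyl-CoA, read 9.91, 9.98 and 10.02 in Abl siNT and 10.28, 10.25 and 10.44 in Abl siGATA2 (normalized log2 intensity). In MDVR it read 9.14, 9.18 and 8.87 with siNT and 9.54, 9.62 and 9.51 with siGATA2. All siGATA2 arrays were above all siNT arrays in both lines. ACAT2 rose by 0.35 (SE 0.09, adjusted p = 0.00519) in Abl and by 0.50 (SE 0.09, adjusted p = 0.000459) in MDVR, and the Abl rise was not called on the average of its probes. HMGCS1, the cytosolic HMG-CoA synthase, read 11.25, 11.27 and 11.29 in Abl siNT and 11.87, 11.73 and 11.80 in Abl siGATA2. In MDVR its values were 9.85, 10.00 and 10.00 with siNT and 10.45, 10.43 and 10.39 with siGATA2. The groups were apart in both lines, and even with siGATA2 the MDVR arrays stayed below the lowest Abl array. Its rise was 0.53 in Abl (SE 0.07, 1.44-fold, adjusted p = 9.9e-06) and 0.47 in MDVR (SE 0.07, 1.39-fold, adjusted p = 6.22e-05), and both calls held under every alternative setting and without any single array.

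GGPS1, which makes geranylgeranyl diphosphate for the lipid tails of small GTPases rather than for sterols, had close values in the lines. It read 9.95, 10.07 and 9.94 in Abl siNT, and 10.80, 10.73 and 10.57 in Abl siGATA2. The MDVR arrays read 9.91, 9.97 and 10.04 with siNT and 10.77, 10.80 and 10.73 with siGATA2. The siGATA2 arrays lay above the siNT arrays in both lines, and the lines overlapped under either siRNA. The rise was 0.72 (SE 0.08, 1.64-fold, adjusted p = 1e-06) in Abl and 0.79 (SE 0.08, 1.73-fold, adjusted p = 5.93e-07) in MDVR. MVD, the decarboxylase that yields isopentenyl diphosphate, read 7.27, 7.19 and 7.10 in Abl siNT and 7.05, 6.87 and 7.16 in Abl siGATA2, and those groups overlapped. MDVR arrays read 5.35, 5.47 and 5.51 with siNT and 5.99, 5.67 and 5.94 with siGATA2, which did not overlap. The change was -0.16 (adjusted p = 0.454) in Abl and 0.42 (SE 0.15, adjusted p = 0.0436) in MDVR. That MDVR call is weak: it held without Abl siNT replicate 1, Abl siGATA2 replicate 3 or MDVR siGATA2 replicate 2 and was lost without any other single array (adjusted p up to 0.142), and with no background correction the change was 0.14 (adjusted p = 0.151).

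The other 4 genes of this stretch were called in neither line. The mevalonate kinase MVK changed by 0.22 and -0.03, the phosphomevalonate kinase PMVK by -0.13 and 0.12, the isomerase IDI1 by 0.21 and 0.15, and the farnesyl diphosphate synthase FDPS by 0.08 and 0.26, in Abl and MDVR in that order. FDPS came closest (MDVR adjusted p = 0.0724, groups apart), and it was called without Abl siNT replicate 2 or MDVR siGATA2 replicate 3 (adjusted p = 0.0472 and 0.0494). IDI1 was called in Abl without Abl siNT replicate 3 (0.31, adjusted p = 0.0457). Thus 3 of the 8 genes of the stretch rose in Abl and 4 in MDVR, where 15.1% and 11.5% of all genes did.

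From squalene onward, siGATA2 raised 4 of 10 measured genes in Abl and 3 in MDVR, and lowered none in either line. Of all genes 15.1% rose in Abl and 11.5% in MDVR, and 16.1% and 10.6% fell. CYP51A1, the lanosterol demethylase, read 9.93, 10.25 and 9.81 in Abl siNT and 10.40, 10.30 and 10.34 in Abl siGATA2. The MDVR values were 9.22, 8.96 and 9.19 with siNT and 9.59, 9.85 and 9.83 with siGATA2. The arrays were apart in both lines, narrowly in Abl. The rise was 0.35 (SE 0.11, adjusted p = 0.0174) in Abl and 0.64 (SE 0.11, adjusted p = 0.000275) in MDVR. The Abl call was lost without Abl siNT replicate 1, Abl siNT replicate 3 or Abl siGATA2 replicate 2 (adjusted p = 0.0524, 0.0997 and 0.0638), and the MDVR call held without any single array.

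TM7SF2, a sterol reductase of the endoplasmic reticulum, read 11.36, 11.30 and 11.43 in Abl siNT and 12.29, 12.14 and 11.98 in Abl siGATA2. Its MDVR values were 11.52, 11.62 and 11.50 with siNT and 11.92, 11.80 and 11.86 with siGATA2. The groups were apart in both lines, and the Abl arrays moved from the lower to the higher line. TM7SF2 rose by 0.77 (SE 0.08, 1.71-fold, adjusted p = 4.09e-07) in Abl and by 0.31 (SE 0.08, 1.24-fold, adjusted p = 0.00653) in MDVR. SC5D, a sterol desaturase near the end of the pathway, read 10.37, 10.58 and 10.19 in Abl siNT and 11.00, 11.09 and 11.08 in Abl siGATA2. Its values in MDVR were 10.42, 10.27 and 10.46 with siNT and 10.69, 10.72 and 10.72 with siGATA2. Again no arrays overlapped, and the siNT levels of the lines did. The rise was 0.67 (SE 0.09, adjusted p = 9.16e-06) in Abl and 0.33 (SE 0.09, adjusted p = 0.0103) in MDVR, where it was lost without MDVR siNT replicate 3 (adjusted p = 0.0592).

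SQLE, the squalene epoxidase that is one of the rate-limiting steps, was called in Abl and not in MDVR. Its brighter probe gave 10.69, 10.37 and 10.56 in Abl siNT and 11.01, 10.77 and 10.92 in Abl siGATA2. MDVR arrays gave 9.69, 9.51 and 9.57 with siNT, and 9.27, 9.55 and 9.62 with siGATA2. The Abl groups were apart and the MDVR groups overlapped. The change was 0.35 (SE 0.10, adjusted p = 0.0126) in Abl and -0.11 (adjusted p = 0.498) in MDVR, and the Abl call was lost without Abl siNT replicate 2 or Abl siGATA2 replicate 2 (adjusted p = 0.0796 and 0.0673). The other 6 sterol genes (LSS, MSMO1, NSDHL, HSD17B7, EBP and DHCR7) were called in neither line. Their changes ran from -0.23 (EBP) to 0.34 (HSD17B7) in Abl and from -0.08 (EBP) to 0.09 (HSD17B7) in MDVR. MSMO1 and NSDHL were apart in Abl at 0.20 each (adjusted p = 0.0628 and 0.059); MSMO1 passed without Abl siGATA2 replicate 3 (adjusted p = 0.02) and NSDHL without Abl siNT replicate 3 (adjusted p = 0.0402). HSD17B7 has a close pseudogene copy that its probe may also read.

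**Figure D3:**
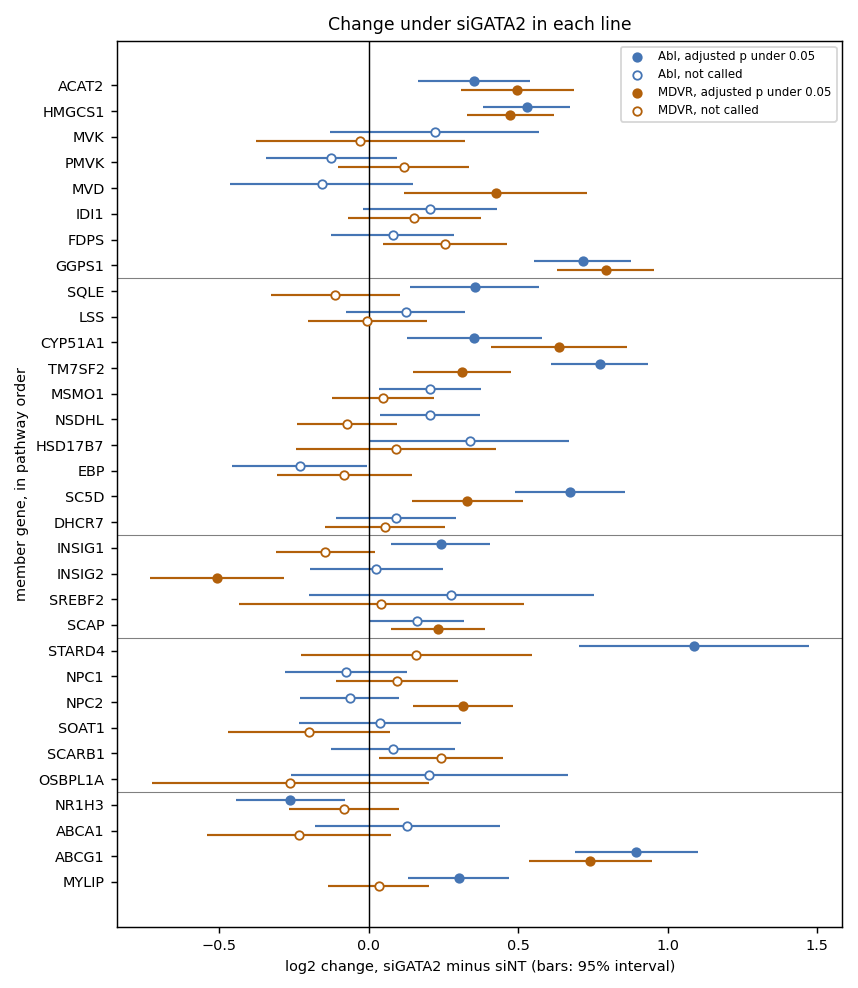
Log2 change with siGATA2 (siGATA2 minus siNT) of each member in Abl and MDVR, with its 95% interval; filled points have an adjusted p under 0.05. HMGCS1, GGPS1 and ABCG1 lie right of 0 by similar amounts in both lines, and STARD4 is furthest right, in Abl. The STARD4 probe passed the detection filter only through Abl siGATA2.

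The 4 sterol-sensing genes did not move as a set, and the INSIG pair changed in different lines. INSIG1 read 12.42, 12.38 and 12.46 in Abl siNT and 12.76, 12.54 and 12.69 in Abl siGATA2, with no overlap. In MDVR it read 10.19, 10.13 and 10.37 with siNT and 10.14, 10.12 and 9.99 with siGATA2, with overlap. INSIG1, an SREBP target that restrains its own activator, rose by 0.24 in Abl (SE 0.08, adjusted p = 0.0251) and changed by -0.15 in MDVR (adjusted p = 0.213). The Abl call was lost without Abl siNT replicate 2, Abl siGATA2 replicate 2 or Abl siGATA2 replicate 4 (adjusted p = 0.0827, 0.121 and 0.076), while the average of its probes gave a larger rise (0.40, adjusted p = 0.00406). INSIG2, the isoform that acts in the same way but is not driven by SREBP to the same extent, read 10.32, 10.29 and 10.21 in Abl siNT and 10.23, 10.43 and 10.25 in Abl siGATA2. MDVR arrays read 10.06, 10.24 and 10.15 with siNT and 9.94, 9.42 and 9.56 with siGATA2. The Abl groups overlapped and the MDVR groups did not. INSIG2 changed by 0.03 in Abl (adjusted p = 0.884) and fell by 0.51 in MDVR (SE 0.11, adjusted p = 0.00182), the 1 member that fell there.

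SCAP, the escort of SREBP, read 10.95, 11.02 and 10.89 in Abl siNT and 11.19, 11.04 and 11.12 in Abl siGATA2. The MDVR values were 10.18, 10.20 and 10.23 with siNT and 10.39, 10.56 and 10.36 with siGATA2. Both pairs of groups were apart, but the Abl change of 0.16 was not called (adjusted p = 0.115) and the MDVR rise of 0.23 was (SE 0.08, adjusted p = 0.0332). The latter was lost without MDVR siNT replicate 2, 3 or 4 or MDVR siGATA2 replicate 2 (adjusted p = 0.0939, 0.0768, 0.0562 and 0.162). It was also lost with median scaling (adjusted p = 0.0624), each probe on its own (0.0507) or a spread with no trend (0.0816). Fitting only the 2 groups compared (0.0563) lost it too, as did the replicate block across all groups or within each line (0.0552 and 0.0851). SREBF2, which encodes the SREBP that drives cholesterol genes, read 5.56, 6.26 and 5.88 in Abl siNT and 6.41, 5.82 and 6.30 in Abl siGATA2. Its values in MDVR were 5.43, 6.37 and 6.04 with siNT and 5.94, 6.03 and 6.00 with siGATA2. This dim probe overlapped between all groups, and its 95% intervals were wide (-0.20 to 0.75 in Abl and -0.43 to 0.52 in MDVR), so a change of SREBF2 RNA was not detectable here. RNA levels do not show how much SREBP was cut or nuclear.

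Among the 6 genes for uptake, movement and storage, 1 rose in each line, where 15.1% of all genes rose in Abl and 11.5% in MDVR. STARD4, a cytosolic carrier that moves sterols between membranes and is itself an SREBP target, read 4.99, 5.17 and 5.00 in Abl siNT and 6.25, 5.78 and 6.39 in Abl siGATA2. In MDVR it read 4.47, 4.55 and 4.66 with siNT and 4.63, 4.85 and 4.67 with siGATA2. It was detected on 1 of 3 Abl siNT arrays, 3 of 3 Abl siGATA2 arrays and 0 of 6 MDVR arrays, so no fold is given within MDVR. The probe was kept, as detected on at least 3 arrays, only through Abl siGATA2, the group where it is high. Neither its Abl rise nor its lower MDVR level under siGATA2 is independent of that filter. The Abl rise was 1.09 (SE 0.18, adjusted p = 0.000152), and its size depended on the background correction: 0.64 with an offset of 50, 0.35 with no correction and 0.23 on the authors' values, with every call kept. NPC2, which hands cholesterol to NPC1 in the lysosome, read 12.36, 12.27 and 12.28 in Abl siNT and 12.25, 12.35 and 12.12 in Abl siGATA2. Its MDVR values were 12.02, 12.04 and 11.75 with siNT and 12.26, 12.22 and 12.27 with siGATA2. The Abl groups overlapped, and in MDVR the siGATA2 arrays were above the siNT arrays, at the Abl level. NPC2 changed by -0.06 in Abl (adjusted p = 0.588) and rose by 0.31 in MDVR (SE 0.08, adjusted p = 0.00719), a call lost without MDVR siNT replicate 4, the lowest array (0.22, adjusted p = 0.0529).

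NPC1, SOAT1, SCARB1 and OSBPL1A were called in neither line. NPC1, the lysosomal exporter, changed by -0.07 and 0.10, and SOAT1, which esterifies cholesterol for storage, by 0.04 and -0.20, in Abl and MDVR. SCARB1, the receptor for high-density lipoprotein, changed by 0.08 and 0.24, and passed in MDVR only without MDVR siNT replicate 3 (0.31, adjusted p = 0.0497). OSBPL1A, an oxysterol-binding protein of late endosomes, read 8.38, 7.32 and 7.31 in Abl siNT, so that 1 array set its spread. Its change in Abl was 0.20 (adjusted p = 0.527), and 0.56 without that array, Abl siNT replicate 1 (adjusted p = 0.0168); its second probe gave -0.02 (adjusted p = 0.957).

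Of the LXR and export genes, ABCG1 rose in both lines and ABCA1 was called in neither. ABCG1, which exports cholesterol to high-density lipoprotein, read 8.36, 8.56 and 8.61 in Abl siNT and 9.38, 9.33 and 9.50 in Abl siGATA2. MDVR arrays read 8.22, 8.39 and 8.12 with siNT and 9.02, 8.96 and 8.98 with siGATA2. Every siGATA2 array was above every siNT array. The rise was 0.89 (SE 0.10, 1.86-fold, adjusted p = 1.16e-06) in Abl and 0.74 (SE 0.10, 1.67-fold, adjusted p = 2.11e-05) in MDVR. Its 4 probes did not agree: probe ILMN_2329927 gave 1.12 and 0.92, while ILMN_1658176 gave -0.13 and -0.18 and ILMN_2262362 gave 0.26 and -0.03, none of the last 4 called. The average of the probes gave smaller rises, 0.54 (adjusted p = 0.00277) and 0.36 (adjusted p = 0.0429). ABCA1, which loads cholesterol onto apolipoproteins, changed by 0.13 in Abl (95% interval -0.18 to 0.44) and by -0.23 in MDVR (95% interval -0.54 to 0.08).

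NR1H3, which encodes an LXR, read 9.41, 9.38 and 9.40 in Abl siNT and 9.11, 9.28 and 9.02 in Abl siGATA2. The MDVR values were 8.99, 9.00 and 9.16 with siNT and 8.98, 8.96 and 8.95 with siGATA2. The groups were apart in both lines, by a hair in MDVR, and the Abl siGATA2 arrays reached down toward the MDVR level. NR1H3 fell by 0.26 in Abl (SE 0.09, adjusted p = 0.0283), the 1 member that fell there, and changed by -0.08 in MDVR (adjusted p = 0.564). The Abl call was lost without Abl siNT replicate 1, 2 or 3 or Abl siGATA2 replicate 2 or 4 (adjusted p = 0.0542 to 0.138). MYLIP, an LXR-induced ubiquitin ligase that marks lipoprotein receptors for breakdown, read 9.21, 9.17 and 9.13 in Abl siNT and 9.41, 9.48 and 9.52 in Abl siGATA2. Its values in MDVR were 9.55, 9.70 and 9.76 with siNT and 9.71, 9.74 and 9.65 with siGATA2. It rose by 0.30 in Abl, where the groups were apart (SE 0.08, adjusted p = 0.00738), and changed by 0.03 in MDVR, where they overlapped (adjusted p = 0.82).

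**Figure D4:**
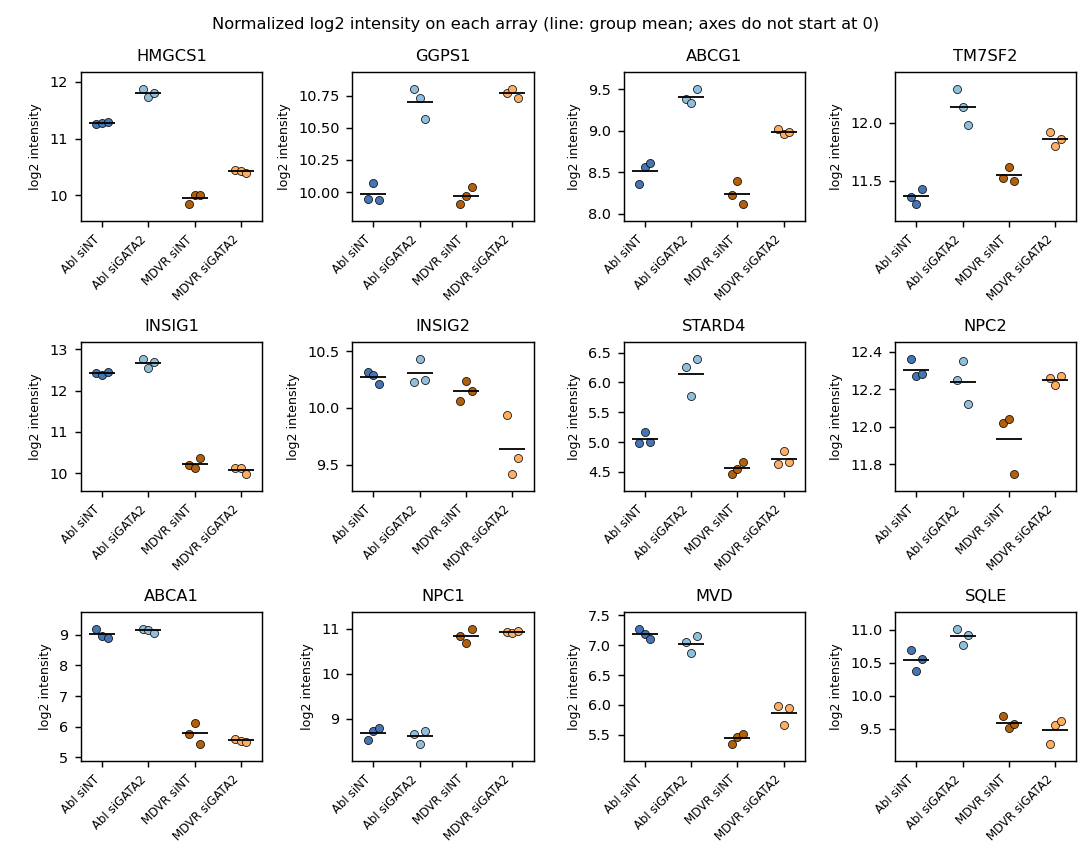
Normalized log2 intensity of 12 members on each array, 3 per group, with the group mean as a line; each panel has its own axis, which does not start at 0. GGPS1 steps up alike in both lines, ABCA1 and NPC1 separate the lines and not the siRNAs, and INSIG2 drops in MDVR siGATA2 alone.

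Set side by side, 7 members rose in both lines: ACAT2, HMGCS1, GGPS1, CYP51A1, TM7SF2, SC5D and ABCG1. Of all genes 6.69% were called higher in both. None of the members fell in both, where 6.78% of all genes did, and none was called in opposite directions. A further 5 were called in Abl and not in MDVR (SQLE, INSIG1, STARD4 and MYLIP higher, NR1H3 lower), 4 in MDVR and not in Abl (MVD, SCAP and NPC2 higher, INSIG2 lower), and 16 in neither. The arrays of siNT and siGATA2 were fully apart for 17 members in Abl and 15 in MDVR, against 43.2% and 36.3% of all genes. The 7 rises in both lines were not equally firm. With the replicate number as a block across all groups or within each line, TM7SF2 was not called in MDVR (adjusted p = 0.0654 and 0.0854). Nor was CYP51A1 in Abl (adjusted p = 0.066 and 0.0574), and ACAT2 was not called in Abl with the block within each line (adjusted p = 0.0841).

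Whether a change differed between the lines was tested directly, and 5 of 32 members passed (15.6%, against 6.81% of all genes), 1 higher (against 3.85% of all genes) and 4 lower (12.5%, against 2.97%). TM7SF2 rose by less in MDVR, with a difference of -0.46 (SE 0.11, 95% interval -0.69 to -0.23, adjusted p = 0.0156), and this call held without any single array (adjusted p = 0.00622 to 0.0483) but not with a spread estimated with no trend (adjusted p = 0.0698). The other 4 calls were close to the threshold. STARD4 is counted among the 5 by its fitted difference of -0.93 (adjusted p = 0.0384), but it was not above background on any MDVR array, so its MDVR change was not measured and this size cannot be read. With no background correction the fitted difference was -0.27 (adjusted p = 0.0735), and -0.19 on the authors' values (adjusted p = 0.0531). INSIG2 had a difference of -0.53 (SE 0.15, adjusted p = 0.0401), INSIG1 one of -0.39 (SE 0.11, adjusted p = 0.0429) and NPC2 one of 0.38 (SE 0.11, adjusted p = 0.0493). Leaving out 1 array ended most of these calls. STARD4 held only without Abl siGATA2 replicate 3 or MDVR siGATA2 replicate 2, and INSIG2 only without Abl siNT replicate 1, MDVR siNT replicate 2 or MDVR siGATA2 replicate 1. INSIG1 and NPC2 held only without Abl siGATA2 replicate 3 or MDVR siNT replicate 3. Without each other array the adjusted p reached 0.11 for STARD4, 0.108 for INSIG2, 0.11 for INSIG1 and 0.141 for NPC2. SQLE missed the threshold (-0.47, adjusted p = 0.0619; called without Abl siNT replicate 1 or MDVR siGATA2 replicate 3), although its second probe passed in a fit over all probes (-0.86, adjusted p = 0.0115). SC5D also missed it (-0.34, adjusted p = 0.111) and passed without Abl siNT replicate 2 (-0.45, adjusted p = 0.0312), and OSBPL1A passed without Abl siNT replicate 1 (-0.82, adjusted p = 0.0339). For the genes that rose in both lines the intervals of the difference were -0.26 to 0.15 (HMGCS1), -0.15 to 0.31 (GGPS1), -0.12 to 0.41 (ACAT2), -0.04 to 0.60 (CYP51A1) and -0.44 to 0.14 (ABCG1).

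More members differed between the lines than changed with siGATA2: 24 under siNT (75.0%, against 51.1% of all genes) and 25 under siGATA2 (78.1%, against 55.5%). For 24 members under siNT and 26 under siGATA2 the arrays of the lines did not overlap, against 56.7% and 60.9% of all genes. The same direction was called under both siRNAs for 21 members, 19 lower in MDVR and 2 higher, where 40.6% of all genes kept a direction. With arrays scaled to 1 median in place of quantile normalization, the median of all genes was shifted toward MDVR by 0.13 under either siRNA, and the share of called genes that were higher in MDVR went from 50% to 63.0% under siNT and from 52.7% to 63.9% under siGATA2. The members under that scaling were 5 higher and 19 lower with siNT, and 4 higher and 19 lower with siGATA2.

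**Figure D5:**
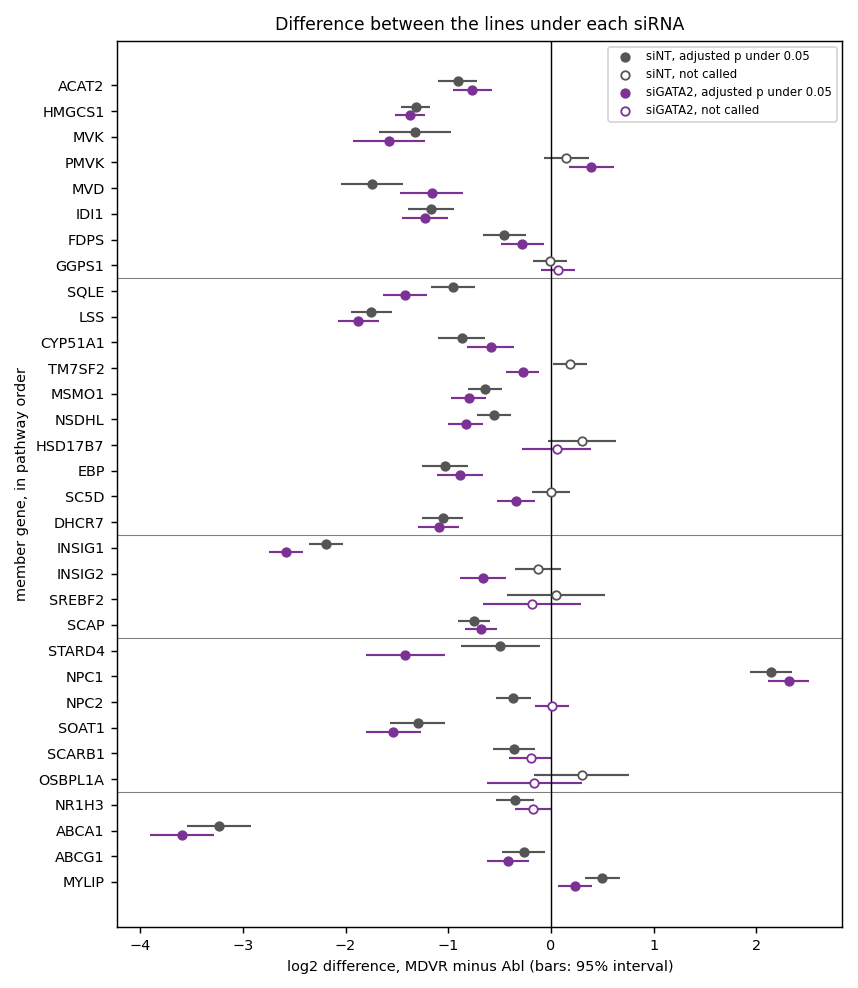
Log2 difference between the lines (MDVR minus Abl) of each member under siNT and under siGATA2, with its 95% interval; filled points have an adjusted p under 0.05. Most points lie left of 0, ABCA1 and INSIG1 furthest, and NPC1 alone lies beyond 2 on the right.

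Synthesis genes were lower in MDVR along the whole pathway, 6 of 8 early genes and 7 of 10 sterol genes under siNT, against 25.5% of all genes. LSS, the lanosterol synthase that closes the ring system, averaged 9.54 in Abl siNT (SD 0.13, n = 3) and 7.79 in MDVR siNT (SD 0.04, n = 3). That is a difference of -1.75 (SE 0.09, 3.36-fold lower, adjusted p = 1.1e-11), and it was -1.88 under siGATA2 (3.68-fold lower). MVD differed by -1.74 and -1.16, MVK by -1.33 and -1.57, HMGCS1 by -1.32 and -1.37, and IDI1 by -1.17 and -1.22, under siNT and siGATA2 in that order. With no background correction MVD differed by -0.74 and -0.51 and MVK by -0.59 and -0.73, and the average of the LSS probes, the dimmer of which was not detected in MDVR, by -1.11 and -1.10. EBP, the sterol isomerase, differed by -1.03 and -0.88 (the latter -0.59 on the authors' values), and DHCR7, the reductase of the final step, by -1.05 and -1.09. SQLE differed by -0.95 and -1.42. Differences in the same direction were called under both siRNAs for ACAT2, CYP51A1, MSMO1, NSDHL and FDPS, from -0.45 to -0.91 under siNT and from -0.28 to -0.83 under siGATA2. FDPS was called under siGATA2 at -0.28 (adjusted p = 0.0217), and not without Abl siGATA2 replicate 3 or 4 or MDVR siGATA2 replicate 1 or 3 (adjusted p = 0.0614, 0.0612, 0.0548 and 0.0947). GGPS1, PMVK, TM7SF2, HSD17B7 and SC5D were not called under siNT, at -0.01, 0.15, 0.18, 0.30 and 0.00. TM7SF2 passed there with median scaling (0.33, adjusted p = 0.00244) and without Abl siGATA2 replicate 2 or 4 (adjusted p = 0.0415 and 0.0412) and HSD17B7 without MDVR siNT replicate 4 (0.49, adjusted p = 0.0144). Under siGATA2 TM7SF2 and SC5D were lower in MDVR (-0.28 and -0.34) and PMVK was higher (0.39); with median scaling TM7SF2 and SC5D were not called (adjusted p = 0.148 and 0.0732).

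ABCA1, INSIG1 and NPC1 had the 3 largest differences among the members under either siRNA. INSIG1 averaged 12.42 in Abl siNT (SD 0.04, n = 3) and 10.23 in MDVR siNT (SD 0.12, n = 3), which is 4.57-fold lower (difference -2.19, SE 0.08, adjusted p = 2.4e-14). Under siGATA2 it was 5.98-fold lower (-2.58), and its second probe, not detected on any MDVR siGATA2 array, gave at least 4.88-fold lower there. That bound holds for the background correction used here. The mean uncorrected intensities of this probe were 266 in Abl siGATA2 and 129 in MDVR siGATA2. SCAP was lower by 0.75 and 0.68 on the log2 scale, INSIG2 was lower under siGATA2 alone (-0.66, adjusted p = 3.1e-05), and SREBF2 was called under neither siRNA. ABCA1 read 9.18, 8.95 and 8.91 in Abl siNT and 5.77, 6.12 and 5.44 in MDVR siNT, and it read 9.19, 9.17 and 9.07 in Abl siGATA2 and 5.61, 5.54 and 5.50 in MDVR siGATA2. No MDVR array came near an Abl array. It was 9.40-fold lower in MDVR under siNT (-3.23, SE 0.15, adjusted p = 7.76e-13) and 12.1-fold lower under siGATA2 (-3.59), although the probe was detected on every array. The fold rests on the background correction: with none, the log2 differences were -1.92 and -2.10, and on the authors' values -1.49 and -1.64.

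NPC1 went the other way. It read 8.54, 8.73 and 8.80 in Abl siNT and 10.83, 10.68 and 10.99 in MDVR siNT, then 8.66, 8.45 and 8.74 in Abl siGATA2 and 10.93, 10.90 and 10.95 in MDVR siGATA2. All MDVR arrays were above all Abl arrays. NPC1 was 4.42-fold higher in MDVR under siNT (2.14, SE 0.10, adjusted p = 7.38e-13) and 4.97-fold higher under siGATA2 (2.31). Its lysosomal partner NPC2 was lower in MDVR under siNT (-0.37, adjusted p = 0.000728; -0.21 with median scaling) and not called under siGATA2 (0.01). SOAT1 differed by -1.30 and -1.54, or by -0.76 and -0.87 with no background correction. STARD4 was at least 2.10-fold lower in MDVR than in Abl under siGATA2, taking the detection limit of each MDVR array as its level. That bound holds for the background correction used here: the fitted log2 difference was -0.80 with an offset of 50, -0.47 with no correction and -0.31 on the authors' values. Under siNT its call (-0.49, adjusted p = 0.0317) was lost without Abl siNT replicate 2 or 3 or MDVR siNT replicate 2 or 3 (adjusted p up to 0.0982), and no bound can be given. SCARB1 and NR1H3 were lower under siNT alone (-0.36 and -0.35), and neither was called with median scaling (adjusted p = 0.0942 and 0.0794). MYLIP was higher in MDVR under siNT (0.50, adjusted p = 3.3e-05) and under siGATA2 (0.23, adjusted p = 0.019), the latter not without Abl siGATA2 replicate 2 or MDVR siGATA2 replicate 2 (adjusted p = 0.074 and 0.0588). ABCG1 differed far less than ABCA1, at -0.27 under siNT (adjusted p = 0.0293) and -0.42 under siGATA2 (adjusted p = 0.00122). Its siNT call was lost without Abl siNT replicate 2 or 3 or MDVR siNT replicate 2 or 4 (adjusted p = 0.0849, 0.109, 0.072 and 0.129) and with median scaling (-0.13, adjusted p = 0.335). On the average of its probes ABCG1 was called under neither siRNA (-0.08 and -0.25). OSBPL1A was called under neither siRNA, but passed under siNT without Abl siNT replicate 1 (0.65, adjusted p = 0.00309).

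Probes of one gene did not always move alike between the lines. Both DHCR7 probes were lower in MDVR by about 1 under each siRNA (-1.05 and -1.01 under siNT), and both SQLE probes were lower (-0.95 and -0.74 under siNT). The probes of MSMO1, ABCG1 and OSBPL1A disagreed in direction. The brightest MSMO1 probe was lower in MDVR under siGATA2 (-0.80), as was ILMN_1689842 (-1.03), but ILMN_2402499 was higher (0.61, adjusted p = 0.00294). The average of the 3 differed by -0.28 under siNT (adjusted p = 0.043) and -0.40 under siGATA2 (adjusted p = 0.00528). For ABCG1 under siGATA2, the brightest probe and ILMN_2329927 were lower in MDVR (-0.42 and -0.53), and ILMN_1658176 gave 0.28 (adjusted p = 0.163). The OSBPL1A probes gave 0.30 and -0.07 under siNT, neither called. The dimmer LSS probe was detected on 3 of 12 arrays, none of them MDVR. With the background correction used here it allows only a bound of at least 1.07-fold lower in MDVR under siNT.

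Other genes of the pathway, listed by role but with earlier results of these data known, went both ways with siGATA2. Of 24 measured genes of sterol handling outside the members, 5 rose and 6 fell in Abl (15.1% and 16.1% of all genes did), and 6 rose and 4 fell in MDVR (11.5% and 10.6% of all genes). LIPA, the lysosomal acid lipase that frees cholesterol from its esters, rose by 0.57 in Abl (adjusted p = 0.000263) and 1.11 in MDVR (adjusted p = 2.72e-07). ACAT1, the mitochondrial thiolase, rose by 0.69 and 0.55. LBR was called lower in both lines, at -0.97 in Abl, the lowest of the 24 there, and -0.66 in MDVR. With no background correction these changes were -0.54 and -0.32, both called. On the average of the LBR probes neither was called (adjusted p = 0.0542 and 0.275). The MDVR call of LBR was lost without MDVR siNT replicate 2 or 4 or MDVR siGATA2 replicate 1 (adjusted p = 0.0935, 0.0583 and 0.0933). In MDVR against Abl 5 of the 24 were higher and 7 lower under siNT, where 25.5% of all genes were higher and 25.5% lower. Under siGATA2 9 were higher and 7 lower, where 29.2% of all genes were higher and 26.3% lower. The differences of the 24 ran from -2.60 to 0.60 under siNT and from -1.68 to 0.86 under siGATA2. LIPA was among those lower under siNT (-1.36). Genes that use farnesyl and geranylgeranyl diphosphate for other products were also called in both directions. Of 13, 3 were higher and 3 lower in Abl, where 15.1% and 16.1% of all genes were. In MDVR 3 were higher and 1 lower, where 11.5% and 10.6% of all genes were. PDSS2, a subunit of the synthase that makes the ubiquinone side chain, rose by 0.53 and 0.57, while PDSS1, the other subunit, fell by 0.84 and 0.38. On the authors' values the PDSS2 rise in MDVR was 0.35 and the PDSS1 changes were -0.51 and -0.25, all called, and the MDVR call of PDSS1 was lost without MDVR siNT replicate 4 or MDVR siGATA2 replicate 2 or 3 (adjusted p = 0.0773, 0.0759 and 0.0577).

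Genes of the fatty acid arm of the SREBP program were mostly lower in MDVR. Of 12 measured genes 8 were lower and 1 higher in MDVR under each siRNA, where 25.5% of all genes were lower under siNT and 26.3% under siGATA2. MID1IP1 and ACSS2 rose and FADS1 fell with siGATA2 in Abl, and ELOVL6 rose in MDVR. Of all genes 31.2% were called in Abl and 22.1% in MDVR. The ACSS2 rise (0.31, adjusted p = 0.0181) was lost without Abl siNT replicate 1, Abl siGATA2 replicate 2 or Abl siGATA2 replicate 4 (adjusted p = 0.1, 0.0825 and 0.0688), and the ELOVL6 rise (0.29, adjusted p = 0.0145) without MDVR siNT replicate 2 or MDVR siGATA2 replicate 2 or 3 (adjusted p = 0.0862, 0.0631 and 0.0714). LPIN1, a phosphatidate phosphatase, was lower in MDVR by 1.45 under siNT (adjusted p = 6.09e-11), FASN, the fatty acid synthase, by 0.88, and ELOVL6, an elongase, by 1.03. MID1IP1, which aids acetyl-CoA carboxylase, rose with siGATA2 in Abl (0.62, adjusted p = 2.17e-05). Its change differed between the lines (-0.63, adjusted p = 0.00328), the 1 such gene of this list, where 6.81% of all genes passed. Of 6 measured LXR targets and partners outside the members, SMPDL3A, a phosphodiesterase, was the 1 that rose in each line (0.77 and 1.29, the latter 0.77 on the authors' values). Of all genes 15.1% rose in Abl and 11.5% in MDVR. The difference of its changes missed the threshold (0.52, adjusted p = 0.0623), and it passed without Abl siNT replicate 3 or MDVR siNT replicate 4 (adjusted p = 0.0311 and 0.0296).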

How the data were processed

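RNA from 12 samples (4 groups of 3) was hybridised to Illumina BeadChips. The authors deposited raw probe intensities with a detection p-value for each probe, per the file headers, and log2 values for 23043 probes that they had normalized; lumi is named in the submitters' processing notes, with its version and settings not given in the sources used here. Here the intensities were corrected with 770 negative control probes, quantile normalized and taken to log2 with an offset of 16 (neqc, limma 3.58.1, R 4.3.3). Probes with a detection p-value under 0.05 on at least 3 arrays were kept (22539 of 47323), and 6672 of these without a single gene symbol were left out. The brightest probe stood for each gene, which gave 11933 genes. One limma model with 4 group means and a trended prior (8 residual and 10.4 prior degrees of freedom) gave all changes, and p-values were Benjamini-Hochberg adjusted over all genes. Over all genes the SE of a siGATA2 change had a median of 0.13, and that of its difference between lines 0.19; the number of arrays limits the precision. The labels do not say that replicates were separate cultures, so the tests reflect only how far these samples spread, which may be technical. Arrays correlated at 0.990 to 0.993 within groups and 0.906 to 0.984 between them. The procedure was tested on simulated data, with 50 genes changed at each size in Abl. It called 12% of them at a log2 change of 0.3, 54% at 0.5, 92% at 1 and 100% at 2. Far fewer genes were changed there than the 3721 called in Abl in the data. The adjusted threshold was therefore stricter in the simulation, and these shares are not those to be had in the data. A gene not called may still have changed.

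The members and the other gene lists were chosen with earlier results of these data known. All measured members are described, and from the other lists up to 4 genes per comparison, those with the smallest adjusted p, could be named. LBR was named as the gene of its list that fell most in Abl. Alternatives covered background correction, normalization, detection filter, choice of probe, the prior, array weights, the groups fitted, the replicate number as a block, the authors' log2 values and each array left out.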

Additional observations from a re-analysis of the deposited data

Results flagged for a closer look

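For 5 members the change with siGATA2 differed between the lines by the test of the difference itself, taken as the MDVR change minus the Abl change. For TM7SF2 it was -0.46 on the log2 scale (0.77 in Abl and 0.31 in MDVR), with all arrays apart in both lines. For INSIG1 it was -0.39 (0.24 and -0.15), for INSIG2 -0.53 (0.03 and -0.51) and for NPC2 0.38 (-0.06 and 0.31). For STARD4 the fitted value was -0.93, but no MDVR array was above background, so the MDVR change was not measured and the size cannot be read. Of the 5, the call of TM7SF2 alone held without every single array, as given above.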

How the results depend on the processing

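Of 77 called member results, 52 kept their call under every setting run. Among 4224 values compared, 149 called values lost their call, 32 gained one, none turned direction while called, and 56 uncalled values changed sign. The count of members whose change differed between lines was least stable: 5 fell to 2 with median scaling, 1 with each probe tested on its own, 1 with no trend in the prior, and 1 to 4 when 1 array was left out. Leaving out 1 array gave 8 to 13 called members in Abl, 8 to 11 in MDVR, 22 to 25 between lines under siNT and 24 to 25 under siGATA2. Replicate numbers are shared between groups, but same-numbered arrays did not deviate together (within a line r -0.01 to 0.12 over 4 pairs, against -0.20 to 0.18 over 14 others; across lines same-numbered pairs ran from -0.20 to 0.01), so the numbers were not taken as pairs. With the replicate number as a block, across all groups or within each line, Abl calls went from 12 to 8, MDVR calls from 11 to 7 and differences between lines from 5 to 2 both times, with the NPC2 difference at 0.19 (adjusted p = 0.436 and 0.447); all-gene differences went from 813 to 273 and 360. With each of 22539 probes tested on its own, 9255 differed between lines under siNT and 10195 under siGATA2. The main fit called 6095 and 6622 of 11933 genes (51.1% and 55.5%). The counts were thus higher with single probes, but the share of features called was lower under both siRNAs. Causes of these shifts were not tested. A slide block was not run, since the file headers used here give no slide. Signal over background limits STARD4, MVD, MVK and SREBF2, and ABCA1 in MDVR (mean 5.78 with siNT and 5.55 with siGATA2). These values lie near the dim end.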
